A study of Mus musculus with 16 samples.

Results

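The 9 genes described here are the metallothioneins Mt1 and Mt2, the glucocorticoid receptor gene Nr3c1, and the glucocorticoid-responsive genes Fkbp5, Tsc22d3, Zbtb16, Sgk1, Dusp1 and Klf9. They were chosen by name, with earlier results of these data known, as every feature of the array whose platform symbol is one of these 9. There were 10 such features, 2 of them for Nr3c1, and all 9 genes were among the 20173 genes tested, of 20738 genes named on the array. RNA came from whole lung homogenate of mouse pups at postnatal day 3 and was measured on 16 single-colour arrays, 4 in each of 4 groups. Wild-type and Fgf10+/- pups, heterozygous for Fgf10 (a growth factor made by lung mesenchyme that drives branching of the airway epithelium), were kept either in normoxia or in 85% oxygen from birth to day 3. The labels name no strain and no other allele or agent for any group. Oxygen exposure of newborn mice is a common model of the injury that oxygen causes in the lungs of preterm infants. The labels do not say whether replicates of a group were separate animals or litters, so the p-values below measure the spread between these samples. In homogenate, fewer cells of a type and less RNA per cell cannot be told apart.

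Glucocorticoids act through the receptor encoded by Nr3c1, which is held in the cytoplasm by heat-shock chaperones and, once it binds hormone, moves to the nucleus and binds palindromic glucocorticoid response elements. Among the genes it switches on are its own brakes, such as Fkbp5, and in the fetal and newborn lung the hormone drives thinning of the alveolar walls, surfactant production and fluid uptake. Metallothioneins are small cysteine-rich proteins that bind zinc and copper and scavenge oxidants. Their genes answer to metals through the factor MTF1 and metal response elements, and also to glucocorticoids, to interleukin-6 signalling and to oxidants.

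Mt1 and Mt2 lie side by side on mouse chromosome 8. The bases before their listed starts are shown because these 2 genes had the largest oxygen differences of the 9 in Fgf10+/- lung. In the RefSeq promoter table (build GRCm38.p6) Mt2 starts 6471 bases before Mt1 on the same strand. The start used for Mt1 there lies 206 bases inside the span RefSeq gives for the gene. Thus 206 of the 250 bases printed for Mt1 lie within that span, and its window is not placed like that of Mt2. The 250 bases before each start are printed 5′ to 3′, with capitals for matches to either of these motifs, searched on both strands: the core of the metal response element (TGCACNC or TGCGCNC) and a glucocorticoid response element (GNACA and TGTNC, 3 bases apart). For Sgk1, 41 bases around the only such match in its windows follow.
Mt1, chr8:94178839-94179088 (+): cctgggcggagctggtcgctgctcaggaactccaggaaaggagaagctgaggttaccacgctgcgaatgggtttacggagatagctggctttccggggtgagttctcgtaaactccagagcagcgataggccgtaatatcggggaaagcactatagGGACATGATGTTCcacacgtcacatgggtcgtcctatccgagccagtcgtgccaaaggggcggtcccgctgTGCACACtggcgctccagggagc
Mt2, chr8:94172368-94172617 (+): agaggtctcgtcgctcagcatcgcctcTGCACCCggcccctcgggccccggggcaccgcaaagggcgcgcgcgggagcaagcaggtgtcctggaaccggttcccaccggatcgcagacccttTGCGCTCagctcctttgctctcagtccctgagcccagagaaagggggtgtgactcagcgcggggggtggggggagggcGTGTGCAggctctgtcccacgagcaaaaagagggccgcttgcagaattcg
Sgk1, chr10:21993688-21993728 (+): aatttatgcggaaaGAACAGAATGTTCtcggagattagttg

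In the window of 300 bases that reaches 50 bases past the start, Mt1 held 3 metal response element cores and 1 glucocorticoid response element. The latter, GGACATGATGTTC, lay at positions -94 to -82 from the start. Mt2 held 4 metal response element cores and no glucocorticoid response element by this motif. Of the 32851 promoter windows of this length in the table, 1.97% held 3 or more cores and 0.517% held 4 or more, while 25.7% held at least 1. The glucocorticoid response element was found in 0.475% of the windows, and both motifs together in 0.116%. In Sgk1, 1 of 6 windows held the glucocorticoid response element, GAACAGAATGTTC, at positions -188 to -176, and another held 1 core. Dusp1 held 1 core across its start. The windows of Fkbp5, Klf9 and Tsc22d3 held no match to either motif in these letters, and a match is a description of letters and not of binding. Promoter windows were matched for 7 of the 9 genes, 14 windows in all; Zbtb16 and Nr3c1 are named only.

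**Figure D1:**
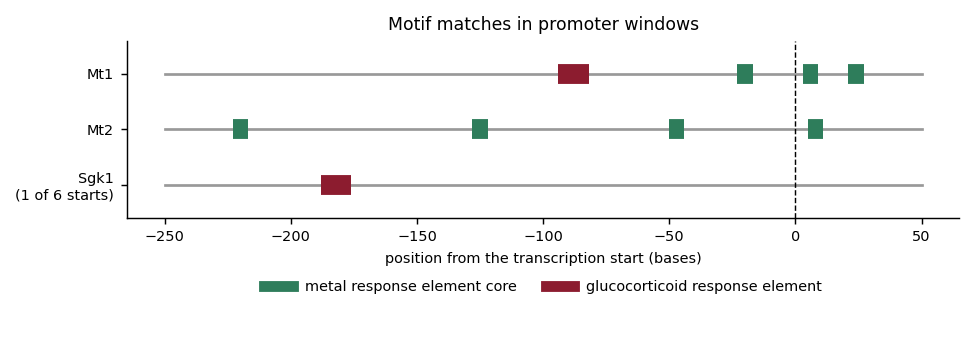
Motif matches in the windows of Mt1, Mt2 and the Sgk1 window with a glucocorticoid response element, drawn by distance in bases from the start site. Metal response element cores and glucocorticoid response elements are marked separately. The cores in Dusp1 and in another Sgk1 window are not drawn. Mt1 is the gene whose single window held both kinds, and Mt2 held 4 cores.

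Values are the authors' log2 intensities. The array medians lay between 4.4996 and 4.5003, and all 10 features of the 9 genes were above the array median on 16 of 16 arrays. Marker levels set 3 arrays apart. On replicate 4 of wild-type normoxia the summed level of 10 skeletal muscle genes was 13.04 (log2), against 8.72 to 8.82 on the other 3 arrays of its group and 8.31 to 9.75 elsewhere. On replicate 2 of Fgf10+/- hyperoxia the summed level of 6 liver genes was 9.25, against 6.51 to 7.53 on the other 15 arrays. On replicate 4 of Fgf10+/- hyperoxia the mean level of 8 cardiac muscle genes was 10.68, against 9.20 to 9.72 on the other 3 of its group. By the summed level it read 14.895, below 14.902 on replicate 1 of wild-type normoxia. Among all 16 arrays it thus stood apart by the mean level only. Without replicate 2 or replicate 4 of Fgf10+/- hyperoxia, the oxygen difference in Fgf10+/- was 1.45 or 1.18 for Mt1 and 1.20 or 0.999 for Mt2. It was 0.45 or 0.40 for Tsc22d3, and all of these were still called by limma. For Fkbp5 it was 0.79 (called) or 0.67 (not called). Fgf10 itself, averaged over its 10 features, had a log2 level of 7.59 ± 0.20 in wild-type normoxia and 7.89 ± 0.21 in Fgf10+/- normoxia, then 7.49 ± 0.18 and 7.28 ± 0.22 in hyperoxia (SD, n = 4). On its brightest feature, the one used in the fit, Fgf10 was called lower with oxygen in Fgf10+/-, at -0.64 ± 0.20 (SE; limma adjusted p = 0.0347). Its genotype difference in normoxia there was 0.48 ± 0.20, not called (limma adjusted p = 0.334). Where the 10 features lie relative to the altered part of the gene is not stated in the sources used here. They therefore check no label, and the genotype of each array rests on its label.

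Hyperoxia raised 4 of the 9 genes in Fgf10+/- lung and none of the 9 fell, in a fit across all genes with limma (called at a Benjamini-Hochberg adjusted p under 0.05). The 4 were Mt1, Mt2, Tsc22d3 and Fkbp5. In the same comparison 23.7% of all tested genes were called, and 13.0% of all genes were called higher in hyperoxia. In wild-type lung 0 of the 9 were called by limma, where 19.1% of all genes were, although 4 of the 9 had an unadjusted p under 0.05, as did 31.1% of all genes; in Fgf10+/- this was 4 of 9 and 34.2%. Fkbp5 differed by 0.69 in Fgf10+/- (called) and by 0.59 in wild type (not called). When only the groups compared were fitted, it was called in wild type (limma adjusted p = 0.0362) and not in Fgf10+/- (0.119). The median difference of the 9 was 0.08 in Fgf10+/- and 0.05 in wild type on the log2 scale, close to the medians over all genes of 0.03 in both. The 2 oxygen comparisons use different arrays, but each genotype comparison shares its arrays with them. None of the 9, and none of all 20173 genes, was called by limma for a difference between the 2 oxygen responses, with 2 of the 9 and 1335 of all genes (6.62%) at an unadjusted p under 0.05.

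**Figure D2:**
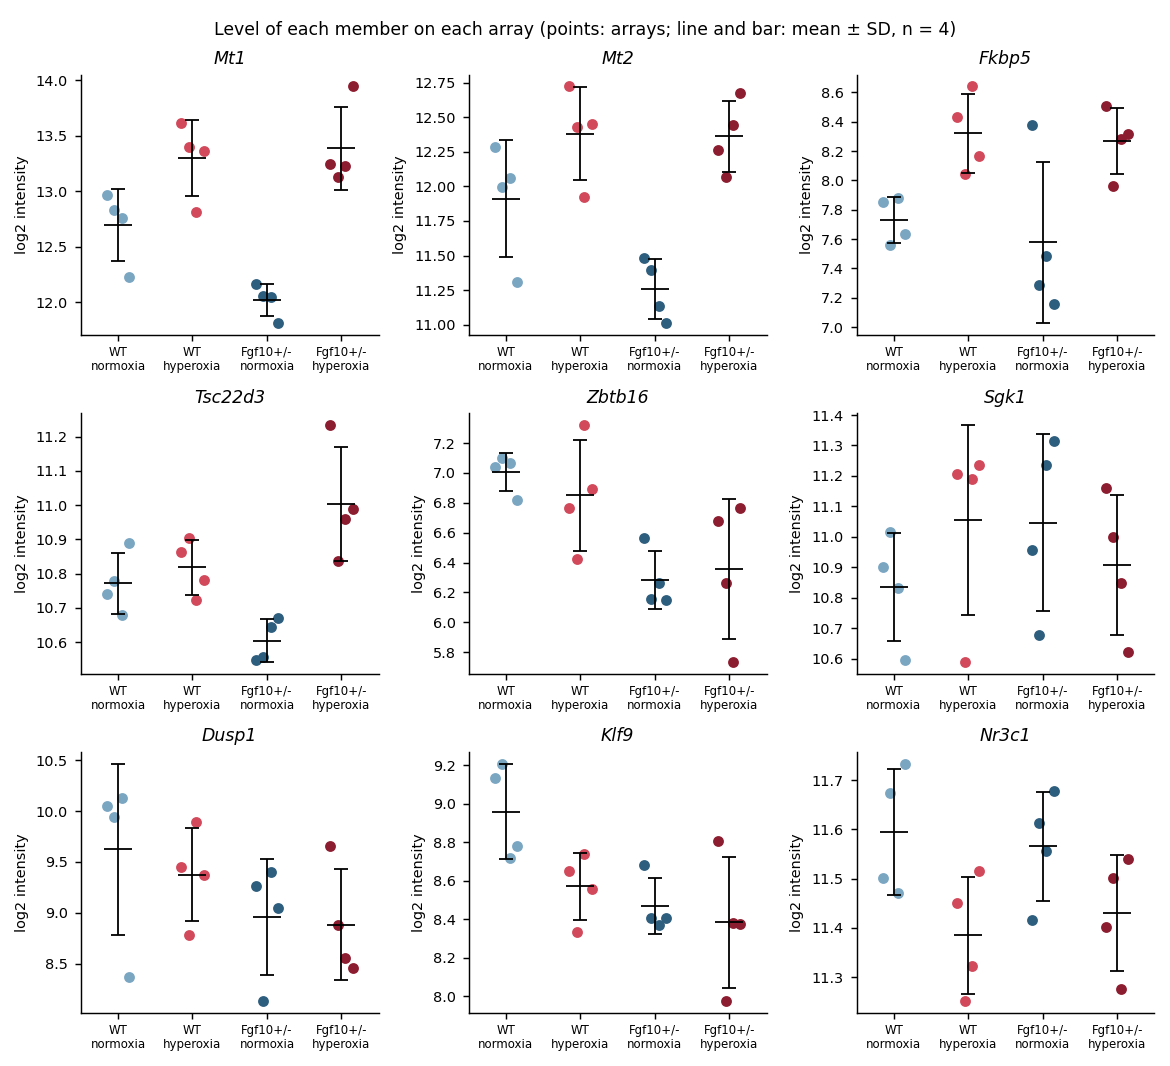
Log2 intensity of each of the 9 genes on each of the 16 arrays, by group; points are arrays, and the line and bar are the mean and SD (n = 4). Mt1 and Mt2 were lowest in Fgf10+/- normoxia, and the y axes differ between panels.

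Mt1, the first of the 2 metallothioneins, rose 2.58-fold with oxygen in Fgf10+/- lung. Its 4 normoxia arrays read 12.17, 12.05, 12.05 and 11.81, and its 4 hyperoxia arrays 13.25, 13.13, 13.23 and 13.95. The groups did not overlap, and replicate 4 of hyperoxia, set apart above by the mean level of cardiac muscle genes, stood above the other 3. The difference was 1.37 ± 0.21 (log2, SE; 95% interval 0.92 to 1.82; limma adjusted p = 0.00033; exact two-sided permutation p = 0.0286, the smallest that 4 against 4 arrays can give). In wild-type lung the normoxia arrays read 12.97, 12.83, 12.76 and 12.23 and the hyperoxia arrays 13.62, 13.40, 12.82 and 13.37. Here 3 of the 4 hyperoxia arrays lay above all normoxia arrays and replicate 3 lay within their range. The difference of 0.60 ± 0.21 (SE; 95% interval 0.15 to 1.06) did not pass the threshold (limma adjusted p = 0.0612; exact permutation p = 0.0857). Without that array it was 0.76 and passed (limma adjusted p = 0.0238); it also passed without replicate 4 of Fgf10+/- hyperoxia (limma adjusted p = 0.0306). Without the wild-type array with skeletal muscle genes it was 0.45 (limma adjusted p = 0.172).

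Mt2, the neighbouring metallothionein, followed the same course. In Fgf10+/- lung its arrays read 11.48, 11.39, 11.14 and 11.01 in normoxia and 12.26, 12.07, 12.44 and 12.67 in hyperoxia. All hyperoxia arrays lay above all normoxia arrays. The rise was 2.15-fold, or 1.10 ± 0.22 (log2, SE; 95% interval 0.64 to 1.57; limma adjusted p = 0.0019; exact permutation p = 0.0286). In wild-type lung the arrays read 12.29, 11.99, 12.06 and 11.31 in normoxia and 12.72, 12.43, 11.93 and 12.45 in hyperoxia, with 3 of 4 hyperoxia arrays above all normoxia arrays. The difference of 0.47 ± 0.22 did not pass the threshold (limma adjusted p = 0.153; exact permutation p = 0.114), and was 0.27 without the array with skeletal muscle genes (limma adjusted p = 0.399). Mt1 and Mt2 are similar in sequence, and how far each feature reads the other gene's RNA was not tested.

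The order of the group means was the same for both genes at its lower end. For Mt1 the means were 12.02 ± 0.15 in Fgf10+/- normoxia, 12.70 ± 0.32 in wild-type normoxia, 13.30 ± 0.34 in wild-type hyperoxia and 13.39 ± 0.37 in Fgf10+/- hyperoxia (SD, n = 4). For Mt2 they were 11.26 ± 0.22, 11.91 ± 0.42, 12.38 ± 0.33 and 12.36 ± 0.26 in the same order of groups. The 2 hyperoxia groups differed by less than their spread, by 0.09 for Mt1 (95% interval -0.36 to 0.54) and -0.02 for Mt2 (-0.48 to 0.44). In normoxia all 4 Fgf10+/- arrays read lower for Mt1 than all 4 wild-type arrays, by 0.68 ± 0.21 on average (SE; exact permutation p = 0.0286), which did not pass the threshold over all genes (limma adjusted p = 0.165). For Mt2 the difference was -0.65 ± 0.22 and the groups overlapped through the wild-type array with skeletal muscle genes, which read 11.31 (limma adjusted p = 0.192). Without that array it was -0.86 and passed (limma adjusted p = 0.0471). The oxygen response was larger in Fgf10+/- than in wild type by 0.76 ± 0.30 for Mt1 and 0.63 ± 0.31 for Mt2, and neither passed (limma adjusted p = 0.726 and 0.756).

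Across the 16 arrays the 2 metallothionein levels had a Pearson correlation of 0.97, and 0.91 once each group's mean was removed (16 arrays, which share array and RNA between the genes). The array-by-array difference Mt1 minus Mt2 stayed between 0.66 and 1.27. Within groups the same arrays were high or low for both genes: 14 of 16 arrays deviated from their group mean in the same direction for both.

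**Figure D3:**
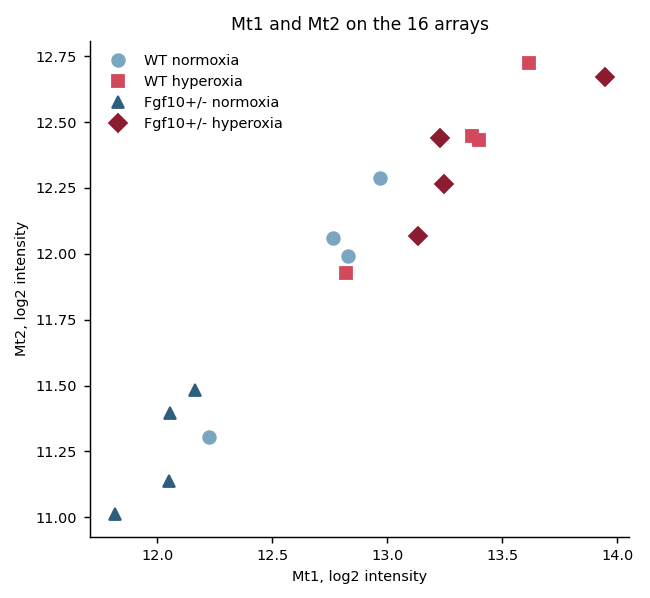
Mt2 against Mt1 log2 intensity on the 16 arrays, 1 point per array, with a marker for each group. The points lie along 1 line, the 4 Fgf10+/- normoxia arrays at its lower end beside wild-type normoxia replicate 4 at 12.23 for Mt1.

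Markers of other cells moved with the metallothioneins. Of all genes, 19.1% were called with oxygen in wild type and 23.7% in Fgf10+/-. Of 8 alveolar type 1 markers, 5 rose with oxygen in wild type and 6 in Fgf10+/- by the same limma test, and the summed level of the list had medians of 14.48 in Fgf10+/- normoxia, 14.79 in wild-type normoxia, 15.21 in wild-type hyperoxia and 15.22 in Fgf10+/- hyperoxia. Its ranges were 14.47 to 14.59, 14.76 to 14.83, 15.09 to 15.42 and 15.15 to 15.28. Hopx, a marker of that cell type, rose by 1.04 ± 0.10 in wild type and 1.37 ± 0.10 in Fgf10+/- (log2, SE). Of 8 genes listed for brown fat, 2 rose in wild type and 4 in Fgf10+/-, and their summed level had medians of 10.29, 11.31, 12.21 and 12.21 in that order of groups. Its ranges were 9.97 to 10.98, 11.17 to 11.65, 12.08 to 12.41 and 11.68 to 12.51. The members behind this were Fabp3, Plin5, Cpt1b and Cox8b, which act in fatty acid use and respiration in several tissues. Of the others, Ucp1 had a mean of 4.66 ± 1.91 in wild-type normoxia (SD, n = 4) and 3.22 to 3.91 in the other groups, Elovl3 and Adipoq had group means of 3.37 to 3.90, and Cidea had means of 4.99 in Fgf10+/- normoxia and 5.60 to 5.95 elsewhere, beside an array median of about 4.50. The array with skeletal muscle genes had a mean level of 7.15 over the list, against 5.78 to 5.93 on the other 3 of its group. Airway club and ciliated cell markers rose too, 6 of 8 in each genotype, while 4 of 8 fibroblast and smooth muscle markers fell in wild type and 3 in Fgf10+/-. Of 8 endothelial markers 1 rose and 2 fell in wild type, and 1 rose and 3 fell in Fgf10+/-. In each genotype 1 of 9 macrophage markers rose and 1 of 7 tested neutrophil markers fell, with 1 other neutrophil marker called higher in Fgf10+/-. The part of these lists in the metallothionein result was not tested.

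Fkbp5 encodes FKBP51, a co-chaperone that lowers the receptor's affinity for hormone and is itself switched on by it. It rose 1.61-fold with oxygen in Fgf10+/- lung, by 0.69 ± 0.23 (log2, SE; 95% interval 0.20 to 1.18; limma adjusted p = 0.0394; exact permutation p = 0.114). The normoxia arrays there read 8.38, 7.29, 7.49 and 7.16, and the hyperoxia arrays 8.51, 7.97, 8.28 and 8.32. Replicate 1 of normoxia lay within the hyperoxia range, and the difference without it was 0.96. That array also had the highest summed neutrophil marker level of the 16, 15.85 against 14.97 to 15.20 on the other 3 of its group; the part of these cells in the value was not tested. The call in Fgf10+/- was lost when any of replicates 1, 3 and 4 of hyperoxia or 2, 3 and 4 of normoxia was left out, with limma adjusted p between 0.0760 and 0.121. In wild type the arrays read 7.85, 7.56, 7.88 and 7.63 in normoxia and 8.43, 8.04, 8.64 and 8.17 in hyperoxia, with no overlap. The difference was 0.59 ± 0.23 (SE; 95% interval 0.11 to 1.08; exact permutation p = 0.0286) and did not pass the threshold over all genes (limma adjusted p = 0.0864), though it did without replicate 1 of Fgf10+/- normoxia (0.0143). The 2 responses differed by 0.10 ± 0.32, less than their error. Fkbp5 was the 1 gene of 9 whose wild-type groups did not overlap; 13.6% of all genes were as cleanly higher in hyperoxia.

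Tsc22d3 encodes GILZ, a leucine zipper protein that the hormone induces and that restrains inflammatory transcription factors. It rose 1.32-fold with oxygen in Fgf10+/- lung, from 10.55, 10.56, 10.65 and 10.67 in normoxia to 11.23, 10.84, 10.96 and 10.99 in hyperoxia. Every hyperoxia array lay above every normoxia array, replicate 1 farthest, as held for 3 of the 9 genes in this genotype (Mt1, Mt2 and Tsc22d3) and for 13.8% of all genes. The difference was 0.40 ± 0.09 (log2, SE; 95% interval 0.20 to 0.60; limma adjusted p = 0.0064; exact permutation p = 0.0286). In wild type it read 10.74, 10.78, 10.68 and 10.89 in normoxia and 10.86, 10.90, 10.72 and 10.78 in hyperoxia, which overlapped. The difference there was 0.05 ± 0.09 (95% interval -0.15 to 0.25; limma adjusted p = 0.800). The 2 responses differed by 0.35 ± 0.13, with an unadjusted p of 0.0184 that did not pass over all genes (limma adjusted p = 0.723). In normoxia the 4 Fgf10+/- arrays all read below the 4 wild-type arrays, the highest at 10.67 and the lowest wild-type array at 10.68, a mean difference of -0.17 ± 0.09 (limma adjusted p = 0.4995).

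Zbtb16 encodes PLZF, a zinc finger repressor strongly induced by glucocorticoids in many cells. Its values separated the genotypes in normoxia rather than the oxygen levels. Wild-type normoxia read 7.04, 7.10, 7.06 and 6.82, and Fgf10+/- normoxia 6.56, 6.16, 6.26 and 6.15, with no overlap. The difference was -0.72 ± 0.22 (log2, SE; 95% interval -1.19 to -0.26; exact permutation p = 0.0286) and did not pass the threshold over all genes (limma adjusted p = 0.151). In hyperoxia wild type read 6.76, 6.42, 7.32 and 6.89 and Fgf10+/- 6.68, 6.27, 5.74 and 6.76, which overlapped, with a difference of -0.49 ± 0.22 (limma adjusted p = 0.521). Oxygen gave differences of -0.16 ± 0.22 in wild type (95% interval -0.62 to 0.31) and 0.08 ± 0.22 in Fgf10+/- (-0.39 to 0.54), neither called.

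Klf9 encodes a Krüppel-like factor that follows hormone pulses closely. It read 9.13, 9.21, 8.72 and 8.78 in wild-type normoxia and 8.65, 8.33, 8.74 and 8.56 in wild-type hyperoxia. Hyperoxia replicates 1, 2 and 4 lay below all normoxia arrays, and the difference of -0.39 ± 0.17 (SE) did not pass (limma adjusted p = 0.128; exact permutation p = 0.0571). Fgf10+/- lung read 8.68, 8.41, 8.37 and 8.41 in normoxia and 8.81, 7.98, 8.38 and 8.38 in hyperoxia, a difference of -0.08 ± 0.17 with overlap. All 4 Fgf10+/- normoxia arrays lay below the 4 wild-type normoxia arrays, by 0.49 ± 0.17 on average (SE; exact permutation p = 0.0286; limma adjusted p = 0.210).

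Sgk1 encodes a kinase that raises sodium uptake through the epithelial sodium channel, and its upstream element is printed above. It read 10.90, 11.02, 10.83 and 10.60 in wild-type normoxia, 11.21, 10.59, 11.19 and 11.24 in wild-type hyperoxia, and 10.96, 10.68, 11.24 and 11.32 in Fgf10+/- normoxia. In Fgf10+/- hyperoxia it read from 10.62 to 11.16, with a mean of 10.91 ± 0.23 (SD, n = 4). All 4 groups overlapped. The oxygen difference was 0.22 ± 0.18 in wild type (95% interval -0.16 to 0.60) and -0.14 ± 0.18 in Fgf10+/- (-0.52 to 0.24), neither called by limma. Replicate 2 of wild-type hyperoxia lay far below the other 3, and the wild-type difference was 0.37 without it and 0.14 without the array with skeletal muscle genes.

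Dusp1 encodes a phosphatase that switches off the p38 and JNK kinases and answers to glucocorticoids and to stress. It had the widest spread within groups of the 9, with an SD of 0.84 in wild-type normoxia. The arrays there read 10.05, 9.95, 10.13 and 8.37, the last being the array with skeletal muscle genes. Wild-type hyperoxia read 9.45, 8.78, 9.89 and 9.37, Fgf10+/- normoxia 9.27, 8.14, 9.40 and 9.04, and Fgf10+/- hyperoxia 9.65, 8.88, 8.55 and 8.45. The oxygen differences were -0.25 ± 0.41 in wild type and -0.08 ± 0.41 in Fgf10+/- (SE), and the normoxia genotype difference was -0.66 ± 0.41 (limma adjusted p = 0.554). Without the array with skeletal muscle genes the last was -1.08 and the wild-type oxygen difference -0.67, and neither was called by limma. With each array left out in turn the latter lay between -0.67 and -0.05.

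Nr3c1, the receptor, differed least between arrays, over a range of 0.48 on its brighter feature. That feature had means of 11.60 ± 0.13 in wild-type normoxia, 11.38 ± 0.12 in wild-type hyperoxia, 11.57 ± 0.11 in Fgf10+/- normoxia and 11.43 ± 0.12 in Fgf10+/- hyperoxia (SD, n = 4), so the hyperoxia means were the lower in both genotypes. The differences were -0.21 ± 0.10 in wild type (limma adjusted p = 0.167) and -0.14 ± 0.10 in Fgf10+/- (0.379). The dimmer feature gave -0.04 and -0.22, and in normoxia the genotypes differed by -0.03 on the brighter and 0.24 on the dimmer feature, so the 2 features disagreed in sign there.

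**Figure D4:**
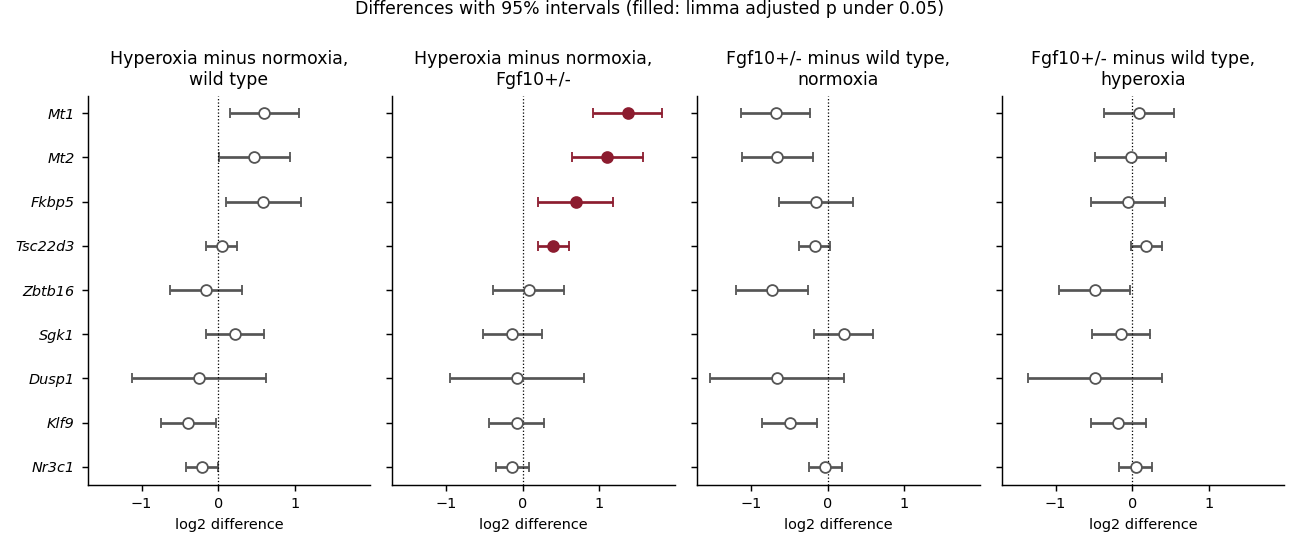
Log2 differences of the 9 genes in the 2 oxygen and 2 genotype comparisons, with 95% intervals; filled points passed a limma adjusted p under 0.05. The 4 filled points are Mt1, Mt2, Fkbp5 and Tsc22d3 under oxygen in Fgf10+/- lung.

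None of the 9 genes was called between genotypes at either oxygen level by limma, where 0.719% of all genes were called in normoxia and 0.411% in hyperoxia. At an unadjusted p under 0.05 there were 4 of 9 in normoxia, Mt1, Mt2, Zbtb16 and Klf9, against 12.9% of all genes, and 1 of 9 in hyperoxia, Zbtb16, against 9.01%. In normoxia 8 of the 9 genes read lower in Fgf10+/-, with a median of -0.49 against -0.0028 for all genes. The groups did not overlap for 4 of the 9, Mt1, Tsc22d3, Zbtb16 and Klf9, all lower in Fgf10+/-, as were 4.52% of all genes. In hyperoxia the groups overlapped for all 9, where 5.98% of all genes did not overlap, and the median was -0.05. Alveolar type 2 markers also read lower in Fgf10+/-, with 5 of 8 called lower in normoxia and 4 of 8 in hyperoxia; the summed level ranged from 16.74 to 16.82 in Fgf10+/- normoxia and 16.97 to 17.05 in wild-type normoxia. Cardiac muscle markers were lower there too: their median difference in normoxia was -0.74, 6 of 8 had an unadjusted p under 0.05 and Tnnt2 was called. Their summed level ranged from 13.72 to 14.40 in Fgf10+/- normoxia and 14.43 to 14.90 in wild-type normoxia. With oxygen Tnnt2 rose by 0.87 ± 0.17 in Fgf10+/- (log2, SE), while Sln and Myl7 fell by 1.39 and 1.01 in wild type. The part of these markers in the members' values was not tested.

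Once each group's mean was removed, the members did not all vary together. Dusp1 and Sgk1 had a correlation of 0.76 over the 16 arrays, Fkbp5 and Klf9 0.56, Fkbp5 and Zbtb16 0.54, and Dusp1 and Zbtb16 0.52. Klf9 had 0.51 with Zbtb16 and 0.50 with Dusp1. Fkbp5 and Nr3c1 went the other way, at -0.53. Mt1 had correlations of 0.13 with Fkbp5 and -0.04 with Tsc22d3. These are descriptions over arrays that share their RNA and hybridisation between genes.

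Other genes known to be induced by glucocorticoids rose more often than they fell. The list was chosen with earlier results of these data known, as were the members and the other lists, so its counts describe these arrays. Of 22 tested, 7 rose and 1 fell in wild type, and 11 rose and 2 fell in Fgf10+/- (limma). The shares of all genes called were 19.1% and 23.7%. Median log2 differences of the list were 0.31 and 0.59, against 0.03 for all genes in both. Scnn1a, the alpha subunit of the epithelial sodium channel, rose by 0.76 ± 0.13 in wild type and 1.46 ± 0.13 in Fgf10+/- (SE). Hif3a, a hypoxia-inducible factor subunit, rose by 0.75 ± 0.19 and 1.88 ± 0.19, and the arrestin-domain gene Arrdc2 by 0.72 ± 0.10 and 0.65 ± 0.10. Cdkn1c, a cell cycle inhibitor, rose by 0.61 ± 0.12 and 0.59 ± 0.12. Ddit4, an inhibitor of mTOR signalling, rose by 0.97 ± 0.16 in Fgf10+/-, and its difference of 0.47 ± 0.16 in wild type did not pass. Txnip, an inhibitor of thioredoxin, fell by 0.94 in wild type and by 1.03 in Fgf10+/-. Without the array with skeletal muscle genes 6 rose in wild type and 12 in Fgf10+/-, and without either Fgf10+/- hyperoxia array set apart above 11 rose and 1 fell in Fgf10+/-. Several of these genes answer to other signals too, and Scnn1a is also carried by the alveolar epithelium whose type 1 markers rose.

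**Figure D5:**
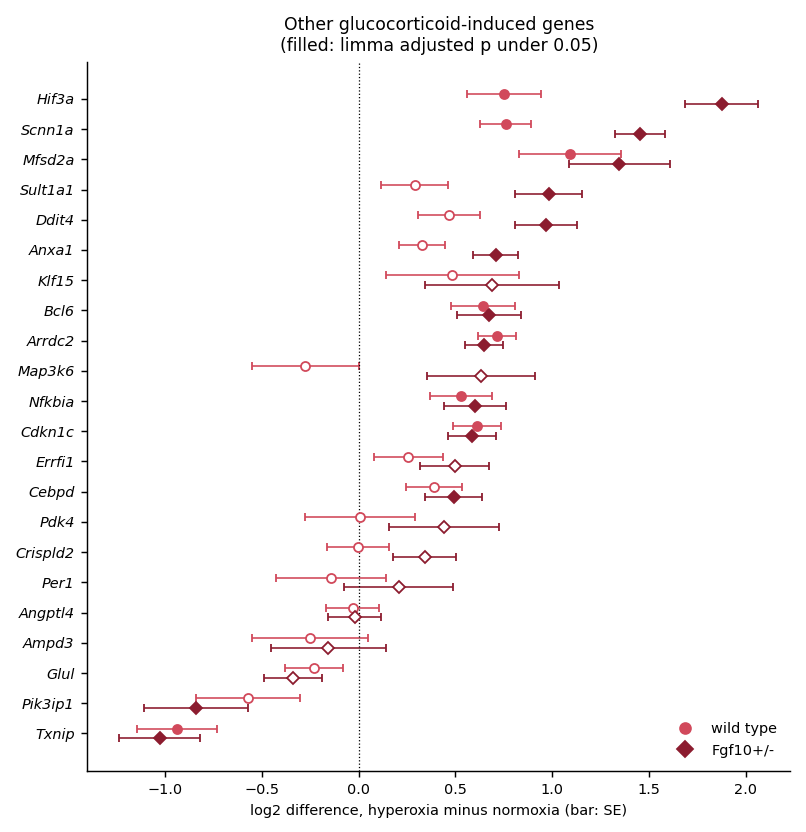
Log2 difference, hyperoxia minus normoxia, of 22 further glucocorticoid-induced genes in wild type and Fgf10+/-, with bars of 1 SE; filled points passed a limma adjusted p under 0.05. Hif3a and Scnn1a were highest in Fgf10+/-, and Txnip was lowest in both genotypes.

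The receptor's chaperones, cofactors and steroid enzymes went several ways. Of 16 tested, 6 rose and none fell in wild type, and 3 rose and 3 fell in Fgf10+/- (limma). Medians were 0.38 and 0.01, and the shares of all genes called were 19.1% and 23.7%. Hsd11b1, which regenerates active glucocorticoid within cells, rose by 0.82 ± 0.14 in wild type and 1.58 ± 0.14 in Fgf10+/- (log2, SE). Bag1, a chaperone partner that binds the receptor, rose by 0.48 ± 0.09 and 0.56 ± 0.09. Ptges3, the p23 co-chaperone, rose by 0.55 ± 0.09 in wild type, and Fkbp4, the partner that opposes Fkbp5, by 0.76 ± 0.19. In Fgf10+/- the co-chaperones Stip1 and Ppid fell by 0.99 and 0.43. The wild-type count ranged from 3 to 8 over the alternative settings.

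Of 18 tested genes that handle zinc and other metals, 3 rose and 1 fell in wild type (limma). In Fgf10+/- 3 rose and none fell, and the median was 0.07 in both. These counts were near the shares of all genes called, 19.1% in wild type and 23.7% in Fgf10+/-. Mtf1, the factor that binds metal response elements, rose by 0.66 ± 0.12 in wild type and 0.75 ± 0.12 in Fgf10+/- (log2, SE). Slc39a4, a zinc importer, rose by 1.01 ± 0.16 and 1.09 ± 0.16. Slc30a1, the zinc exporter that MTF1 also controls, fell by 0.91 in wild type, and its difference of -0.48 ± 0.22 in Fgf10+/- did not pass. Slc30a5, a transporter of the secretory pathway, rose by 0.47 ± 0.09 in wild type, and Slc39a8, an importer of zinc and manganese, by 0.35 ± 0.11 in Fgf10+/-.

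Genes of the other signals that reach metallothioneins were read beside them. The shares of all genes called with oxygen were 19.1% in wild type and 23.7% in Fgf10+/-. Of 12 interleukin-6 and acute phase genes, 5 rose in wild type and 8 in Fgf10+/-, and none fell (limma). The counts ranged from 4 to 8 and from 4 to 9 over the alternative settings. Il6, Socs3, Saa3 and Lcn2 were called in neither genotype, though the mean of each was higher in hyperoxia in both. Stat3, the factor that interleukin-6 activates, rose by 0.71 ± 0.11 and 0.63 ± 0.11 (log2, SE), and the receptor gene Osmr by 0.58 ± 0.15 and 0.61 ± 0.15. Serpina3n, an acute phase protease inhibitor, rose by 1.96 ± 0.59 in wild type and 2.86 ± 0.59 in Fgf10+/-. Its normoxia means were low, 2.90 ± 0.74 in wild type and 2.99 ± 1.34 in Fgf10+/- (SD, n = 4), beside an array median of about 4.50. Of 10 tested NRF2 targets, 7 rose in each genotype and none fell, with medians of 1.02 and 0.97. Gpx2, a glutathione peroxidase, rose by 3.08 ± 0.16 and 2.98 ± 0.16, and Gclc, which makes glutathione's precursor, by 1.41 ± 0.13 and 1.51 ± 0.13.

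Relatives of the signalling members were also counted, beside the 19.1% of all genes called in wild type and 23.7% in Fgf10+/-. None of 12 immediate-early genes was called in either genotype by limma (2 in wild type and 0 in Fgf10+/- at an unadjusted p under 0.05), and Fosb was the one with the smallest p in wild type, at 0.77 ± 0.33 (log2, SE). Of 9 other MAP kinase phosphatases, 1 rose and 1 fell in wild type, Dusp14 by 1.27 ± 0.12 upward and Dusp8 at -0.72 ± 0.23. In Fgf10+/- Dusp14 and Dusp7 rose, by 1.52 ± 0.12 and 0.77 ± 0.21. Of 14 relatives of Tsc22d3, Klf9, Zbtb16 and Sgk1, 3 fell in wild type and 1 in Fgf10+/-, and none rose. Sgk3 fell in both genotypes, by 0.42 and 0.53, and Tsc22d1 and Tsc22d4 fell in wild type by 0.35 and 0.36. Of 13 genes of the circadian clock and its outputs, which glucocorticoids help to set, 2 rose and 4 fell in wild type and 1 rose and 2 fell in Fgf10+/-. Nr1d2 fell by 1.33 and 1.04 and Tef by 1.16 and 0.60 in the 2 genotypes. Dbp fell by 2.10 in wild type, while its difference of -0.93 ± 0.34 in Fgf10+/- did not pass. Arntl rose by 0.74 ± 0.12 and Clock by 0.40 ± 0.13 in wild type. Their differences of 0.29 ± 0.12 and 0.08 ± 0.13 in Fgf10+/- did not pass, and Bhlhe40 rose there by 0.73 ± 0.25. The clock counts in Fgf10+/- ranged from 0 to 2 rising and 1 to 4 falling over the alternative settings.

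The genes whose levels followed Mt1 most closely over the 16 arrays, Mt2 left out with the other members, were Tob1 (Pearson r = 0.94), Cyth3 (0.94), Klc2 (0.94), Samhd1 (0.94) and Rtf2 (0.93). Cyth3 had group means of 8.38 ± 0.09 in Fgf10+/- normoxia, 8.74 ± 0.26 in wild-type normoxia, 9.05 ± 0.15 in wild-type hyperoxia and 9.07 ± 0.20 in Fgf10+/- hyperoxia (SD, n = 4). For Fkbp5 they were Hspa9 (0.92), Jak3 (0.92), Ocel1 (0.91), Cnnm4 (0.90) and Tspan11 (0.90). These 10 were picked as the highest of 20173 genes, so their correlations describe the arrays.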

How the data were processed

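The authors' deposited table holds log2 intensities of 62976 features on 16 single-colour (Cy3) arrays, already normalized: the values show a common distribution on every array, and the steps behind them are not stated in the sources used here. A platform table gave 31465 features 1 gene symbol and 31511 none. Of the former, 29036 were named through their accession, whether or not the symbol changed. A feature was kept if above the 25th percentile of its array on at least 4 of 16 arrays, and a gene was represented by its kept feature with the highest mean, leaving 20173 genes. Spots sharing an accession were not averaged. Groups of 4 were fitted with limma 3.58.1 in R 4.3.3, as a mean per group over all 16 arrays (12 residual degrees of freedom and 2.129 prior), with Benjamini-Hochberg adjustment over all genes. The fit was tested on simulated data. Exact permutation tests used the 70 splits of 4 against 4 arrays. Precision is limited by having 4 arrays a group.

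The members and all gene lists were chosen with earlier results of these data known. Of each list every tested gene was counted, and up to 4 with the smallest p in each oxygen comparison could be named, with some given in the other genotype too. Some further genes of the lists are named outside this rule. Summed marker levels are the log2 of summed linear intensities. Promoter windows came from RefSeq GRCm38.p6. Alternatives covered the filter, scaling, choice of feature, variance model, array weights, replicate number as a block, the samples fitted, a fold minimum and leaving out each array.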

Additional observations from a re-analysis of the deposited data

Results flagged for a closer look

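Of the 36 sets of 4 arrays examined for the 9 genes, 4 held an array far from the other 3 by Dixon's ratio (above its 95% critical value), where chance alone marks about 1 in 20. Mt1 read 13.95 on replicate 4 of Fgf10+/- hyperoxia, with the other 3 between 13.13 and 13.25. That array also stood apart by the mean level of cardiac muscle genes. Sgk1 read 10.59 on replicate 2 of wild-type hyperoxia, with the others between 11.19 and 11.24. Dusp1 read 8.37 on replicate 4 of wild-type normoxia, the array that also carried skeletal muscle genes, with the others between 9.95 and 10.13. Klf9 read 8.68 on replicate 1 of Fgf10+/- normoxia, with the others between 8.37 and 8.41.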

How the results depend on the processing

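Mt1 and Mt2 stayed called with oxygen in Fgf10+/- lung under every alternative run, with limma adjusted p up to 0.0034 and 0.0080; Tsc22d3 did too, up to 0.0482, except that a minimum of 1.5-fold drops it. The count of members called there ranged from 3 to 4 when each array was left out. The Fkbp5 call was also lost when arrays were scaled to a common 75th percentile (0.0501) and when only the groups compared were fitted (0.119). In wild type the count rose from 0 to 1 under 4 settings: a filter at the 50th percentile (Mt1, 0.0392), a trended robust variance (Fkbp5, 0.0399), the replicate block (Fkbp5, 0.0317) and only the groups compared (Fkbp5, 0.0362). Leaving out each array gave 0 to 1 there and 0 to 1 for genotype in normoxia; the cause was not tested. Genotype in hyperoxia and the difference of responses stayed at 0 of 9. Same-numbered arrays had residual correlations over all genes from -0.03 to 0.09. A pairing that moves only some genes need not show in such a value, so it does not settle whether the numbers pair the samples. The replicate block also moved genes called by genotype in hyperoxia from 83 to 37, and the clock genes that rose in Fgf10+/- from 1 to 2. Over all genes, a minimum of 1.5-fold gave 2140 and 2845 calls for oxygen, against 3846 and 4790. Genotype in normoxia gave 145, then 283 with the filter at the 50th percentile, 94 with features averaged, 433 with the trended robust variance, 290 with array weights, 0 with only the groups compared (limma; 2241 at an unadjusted p under 0.05) and 44 to 292 with arrays left out. Genotype in hyperoxia gave 126, 223 and 0 (1825 unadjusted) under the 50th percentile, trended robust variance and only the groups compared, and 13 to 80 with arrays left out. The difference of responses, 0 over all genes (1335 unadjusted), gave 0 to 1. Averaging its features moved Nr3c1 in normoxia from -0.03 to 0.10 between genotypes and its difference of responses from 0.07 to -0.05. No call reversed. Fitting only the groups compared is the same fit for the difference of responses and was not run. No spot-level background or saturation was used here.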

Other observations

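Replicate numbers were no part of the report's comparisons, but some members leaned with them. Fkbp5 lay above its group mean on replicate 1 in 4 of 4 groups, by 0.12, 0.11, 0.80 and 0.24 (log2; wild-type normoxia, wild-type hyperoxia, Fgf10+/- normoxia, Fgf10+/- hyperoxia), and below it on replicate 2 in 4 of 4. Klf9 and Dusp1 also lay above their group means on replicate 1 in 4 of 4 groups. The mean log2 level of 7 neutrophil markers did so too, by 0.69, 0.17, 0.82 and 0.42, and lay below on replicate 2 in 4 of 4 groups. Nr3c1 lay above its group mean on replicate 4 in 4 of 4 groups, by 0.14, 0.13, 0.11 and 0.11. It lay below that mean on replicate 3 in 4 of 4, and Klf9 lay below its own on replicate 4 in 4 of 4. The labels do not say that a number marks a shared litter or day. These cases were picked after the values were known, from 9 genes and 4 replicate numbers. Their cause, and how many of them chance alone would give, were not tested.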
